A study of Mus musculus with 28 samples.

Results

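Cytochromes P450 of families 1 to 4 were followed in liver and muscle of obese mice given aspirin and trimetazidine together or the solvent alone. The members are the protein-coding genes whose symbol starts with Cyp, a digit of 1 to 4 and a lower-case letter. The tables hold 81 such genes, and 46 of them reached 1 FPKM in at least 6 of the 12 livers at 40 d, out of 10995 genes that did so. FPKM counts the sequenced fragments of a gene per kilobase of its length and per unit of a scaling factor of its library, so levels can be set side by side between genes. In these data the factors did not follow the number of reads on genes exactly. The other 35 members stayed under that level, and 6 of them were at 0 in every liver of 40 d. In muscle 12 members reached it, among 11708 genes.

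The treated mice were injected into the abdomen every day with 3.0 mg/kg of aspirin plus 5.0 mg/kg of trimetazidine, and the vehicle mice with solvent. All mice of both groups were male C57BL/6J animals homozygous for the Lepob allele, which leaves them without working leptin, and all ate the AMLN diet from 4 weeks of age for 20 weeks. In that diet fat supplies 40% and fructose 20% of the calories and cholesterol makes up 2% of the weight, and with it the mice serve as a model of steatohepatitis. Each tissue had 6 treated and 6 vehicle mice at 40 d, and 1 treated and 1 vehicle library at 24 h. By the labels, 40 d is the length of treatment and 24 h the time after injection. No lean or untreated mice were compared, so every value describes obese animals.

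P450 enzymes are heme proteins of the endoplasmic reticulum that insert an oxygen atom into their substrates, with electrons from the reductase Por. Families 1 to 3 oxidise steroids as well as drugs and other foreign compounds. Family 4 mainly hydroxylates the tail end of fatty acids and eicosanoids. Hepatocytes hold most of them, and receptors that act as transcription factors set their levels. These are Ahr for Cyp1a, and the nuclear receptors CAR (Nr1i3) for Cyp2b, PXR (Nr1i2) for Cyp3a and PPAR-alpha (Ppara) for Cyp4a.

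The 40 d livers held 16.8 to 18.9 M reads on genes and the 40 d muscles 16.1 to 19.9 M. The mouse numbers of the treated group were 4_5 and 5_1 to 5_5, and those of the vehicle group 2_1, 2_3, 2_4, 2_5, 3_2 and 6_1. No leading digit occurred in both groups, so whatever that digit stands for cannot be told apart from the treatment. Treated liver 5_2 stood apart by 71.9 FPKM of the bile duct keratin Krt19, against 3.34 to 5.97 FPKM in the other treated livers and 3.64 to 6.90 FPKM in vehicle livers. It was also the treated liver with the least serum amyloid A mRNA, with 44.1 FPKM of Saa1 against 460 to 2900 FPKM in the other treated livers and 52.0 to 104.5 FPKM in vehicle livers. Treated liver 4_5 had 695 FPKM of the macrophage gene Cd5l, against 185 to 274 FPKM in the other treated livers and 174 to 210 FPKM in vehicle livers. The tissue carried the marker of hepatocytes: Alb averaged 19200 ± 4828 FPKM in treated livers and 22320 ± 2078 FPKM in vehicle livers (SD, n = 6 each), and muscle fibre genes summed to at most 5.86 FPKM in a liver.

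After 40 d a single member changed past the threshold in liver: Cyp2c55 was lower in treated mice. The threshold was an adjusted p of 0.05 in limma's moderated test on log2(FPKM + 1), fitted across all genes. That is 1 of 46 members, or 2.17%, against 0.255% of all genes tested (28 of 10995). At an unadjusted limma p under 0.05 there were 13 members, 10 lower and 3 higher, or 28.3%, against 13.2% of all genes (7.35% lower and 5.88% higher). The 10 were Cyp2c55, Cyp2a22, Cyp2f2, Cyp2b10, Cyp2j6, Cyp2a4, Cyp2a12, Cyp4v3, Cyp2b9 and Cyp2c39, and the 3 were Cyp2c54, Cyp2c50 and Cyp2c37. Cyp2b10 reached 1 FPKM in 5 vehicle livers and 1 treated liver, so it was tested mainly because of the group where it was high. Treated and vehicle livers did not overlap at all in 4 members, or 8.7%, against 1.16% of all genes (0.728% lower and 0.427% higher): Cyp2c55, Cyp2a22 and Cyp2f2 lay below every vehicle liver, and Cyp2c54 lay above. In direction the members were mixed, with 25 lower and 21 higher in treated mice, and 51.0% of all genes were lower. The median log2 fold change of the members was -0.04 and that of all genes -0.00. Summed, the 81 members gave 5786 ± 1383 FPKM in treated livers and 5956 ± 607 FPKM in vehicle livers (SD, n = 6 each).

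**Figure D1:**
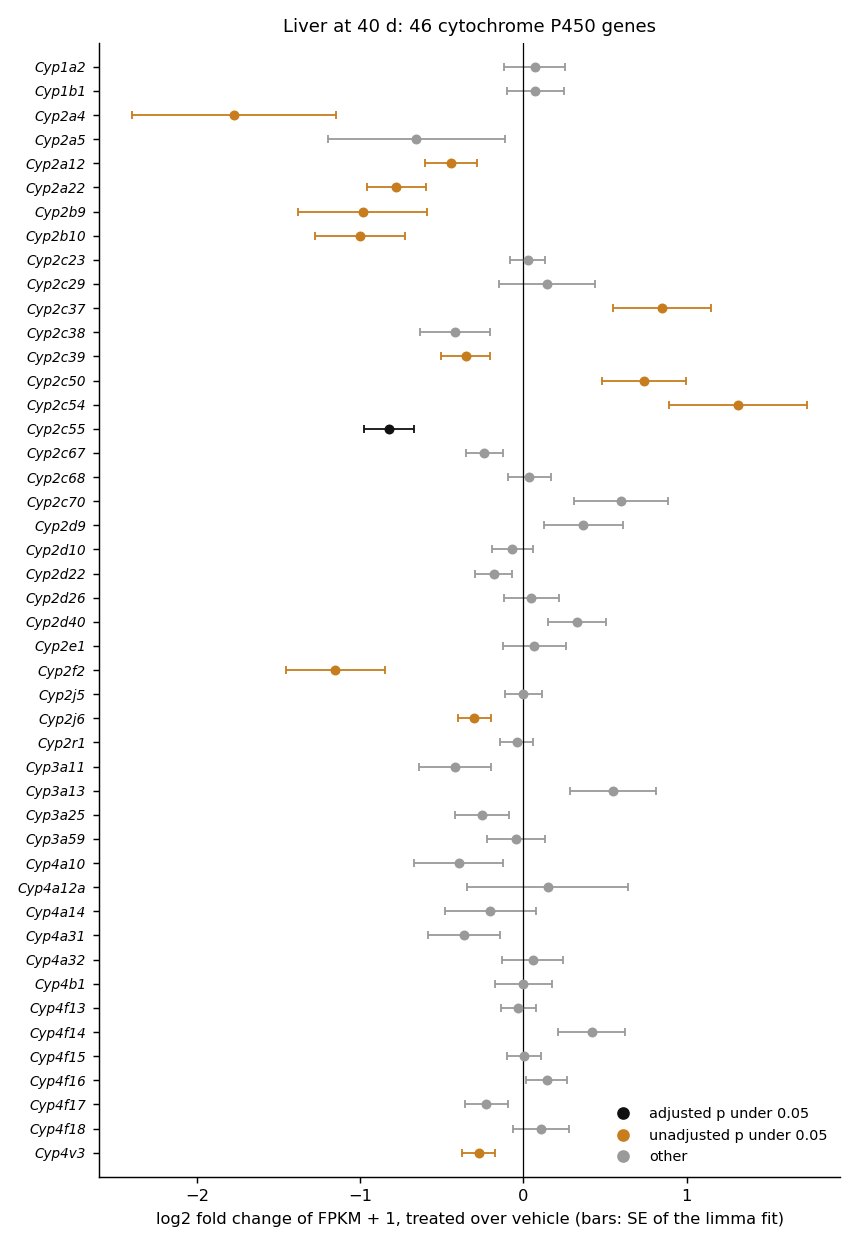
Log2 fold change of FPKM + 1 in liver at 40 d, treated over vehicle, for the 46 measured members, ordered by family, subfamily and number down the page. Points are estimates of the fit with 6 treated and 6 vehicle livers, bars are their SE, black marks an adjusted p under 0.05 and orange an unadjusted p under 0.05. Cyp2c55 at -0.83 is the black point, and the Cyp2a, Cyp2b and Cyp2f genes all lie left of 0.

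Treated livers varied more among themselves than vehicle livers. The median coefficient of variation of the members was 32.1% in treated and 18.6% in vehicle livers, against 15.8% in treated and 12.7% in vehicle livers over all genes. It was larger in treated than in vehicle livers for 39 of 46 members, or 84.8%, against 65.8% of all genes. Treated liver 5_5 held the lowest of the 12 values in 18 members, and treated liver 5_3 the highest in 17. Vehicle liver 2_1 followed with the highest in 13. How often each liver was lowest or highest over all genes was not counted, so these counts are not particular to the members. The scaling factor was 15.4 M for 16.77 M reads on genes in treated 5_3, and 18.7 M for 17.88 M in treated 5_5. The part of the scaling in these counts was not tested. In bulk liver, fewer cells of a kind and less RNA per cell cannot be told apart.

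**Figure D2:**
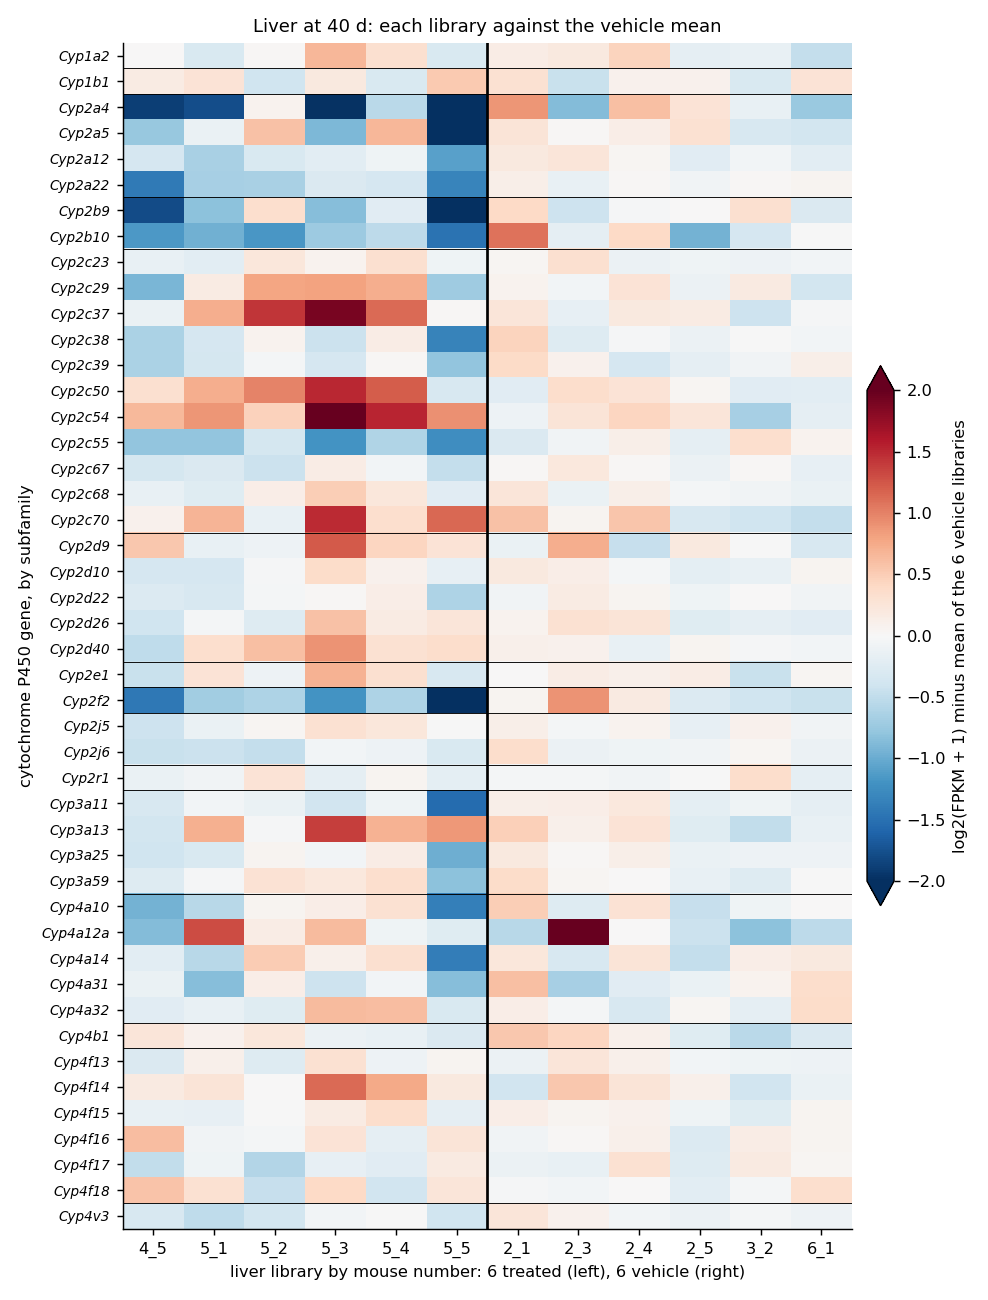
Each column is a liver at 40 d, the 6 treated mice left of the line and the 6 vehicle mice right of it, and each row is a member. Colour is log2(FPKM + 1) minus the mean of the 6 vehicle livers, red for higher and blue for lower, with values past 2 in either direction drawn at the end of the scale. The Cyp2a, Cyp2b and Cyp2f2 rows are mostly blue in the treated columns, Cyp2c37, Cyp2c50 and Cyp2c54 are mostly red, and treated 5_5 holds the lowest value of its row in 18 rows.

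The Cyp2c genes metabolise drugs and turn arachidonic acid into epoxides and hydroxylated products, and 10 measured members stand in a row on chromosome 19 over 1180 kb (GRCm38, chr19:39007019-40187333). The promoters that follow are the 250 bases before the RefSeq start of the gene at one end of that row, Cyp2c55, and of a pair towards the other end that lay higher in treated livers, Cyp2c37 and Cyp2c50. They are taken from RefSeq on GRCm38.p6. In Cyp2c55 (chr19:39006769-39007018, + strand) capitals mark the TATA motif TATAAA, and in the pair (chr19:39992174-39992423 and chr19:40089429-40089678, + strand) capitals mark bases that differ or are unpaired when both promoters are aligned.
Cyp2c55: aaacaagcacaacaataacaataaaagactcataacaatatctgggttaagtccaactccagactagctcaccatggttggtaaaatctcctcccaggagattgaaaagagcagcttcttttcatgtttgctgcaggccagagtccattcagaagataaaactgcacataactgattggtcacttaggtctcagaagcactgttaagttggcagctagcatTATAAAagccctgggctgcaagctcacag
Cyp2c37: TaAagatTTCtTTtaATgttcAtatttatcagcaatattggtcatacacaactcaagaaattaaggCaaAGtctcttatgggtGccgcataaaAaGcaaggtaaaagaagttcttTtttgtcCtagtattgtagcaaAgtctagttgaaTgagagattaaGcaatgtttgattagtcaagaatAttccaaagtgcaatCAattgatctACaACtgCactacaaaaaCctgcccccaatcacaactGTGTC
Cyp2c50: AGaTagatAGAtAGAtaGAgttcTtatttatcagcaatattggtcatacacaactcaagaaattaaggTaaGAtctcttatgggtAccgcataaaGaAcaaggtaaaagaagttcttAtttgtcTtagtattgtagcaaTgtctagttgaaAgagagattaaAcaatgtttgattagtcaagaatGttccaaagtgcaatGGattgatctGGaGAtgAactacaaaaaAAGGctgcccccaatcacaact

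The promoters of Cyp2c37 and Cyp2c50 were 84.3% identical over the alignment, against 54.8% for Cyp2c55 and Cyp2c37. TATAAA, searched on both strands, stood in 18 of the 38 measured members with a promoter sequence (47.4%), Cyp2c55 among them. It was in 13.0% of 27025 promoters and in neither of the pair. For members the RefSeq start nearest to the gene's start was used, and for all promoters the first listed of each gene. The nuclear receptor half-site AGGTCA was found in 8 of the 38 promoters (21.1%), against 13.8% of all. Its direct repeats AGGTCANAGGTCA and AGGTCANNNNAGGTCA were in none of the 38, and in 0.037% and 0.0111% of all promoters. The site CAAAGTCCA of the hepatocyte factor HNF4 was in 4 of the 38, those of Cyp2c67, Cyp2c68, Cyp2c70 and Cyp3a11 (10.5%), against 0.381% of all. The core GCGTG of the sites that Ahr binds was in 5 of the 38 (13.2%), those of Cyp1b1, Cyp2b10, Cyp2c68, Cyp4f16 and Cyp4v3, against 28.2% of all.

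Cyp2c55 (ENSMUSG00000025002, chr19:39007019-39042693) is an epoxygenase and hydroxylase of arachidonic acid known best from the colon, and PXR and CAR ligands raise it in mouse liver. Its values in treated livers had a lowest of 1.45, a median of 2.35 and a highest of 3.55 FPKM, against 3.74, 4.78 and 6.32 FPKM in vehicle livers. Every treated liver lay below every vehicle liver. The means were 2.34 ± 0.79 FPKM in treated and 4.83 ± 0.93 FPKM in vehicle livers (SD, n = 6 each), with the log2 fold change at -0.83 (SE 0.15, limma adjusted p = 0.0441). The reads behind a value were few, 47 to 133 in treated and 138 to 226 in vehicle livers, and 3.21% of its exonic bases overlap Gm23800 on the other strand. The fold change stayed between -0.92 and -0.74 with any 1 liver left out. The call did not: it remained only without treated 5_2 (limma adjusted p = 0.0117), and without any of the other 11 livers the adjusted p was 0.0556 to 0.112.

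Towards the other end of the cluster, Cyp2c37, Cyp2c54 and Cyp2c50, neighbours that act on arachidonic acid and other fatty acids, all lay higher in treated livers. Cyp2c54 had 2.62, 3.91 and 27.95 FPKM as lowest, median and highest in treated livers, against 0.663, 1.78 and 2.56 FPKM in vehicle livers. The groups did not overlap, and treated 5_3 alone carried the highest value, with the next at 6.58 FPKM. Its log2 fold change was 1.31 (SE 0.42, limma adjusted p = 0.207), and 0.89 at the least with 1 liver left out. Cyp2c37 had 13.1, 28.8 and 56.9 FPKM in treated livers, against 10.6, 15.3 and 17.3 FPKM in vehicle livers. In 4 of 6 treated livers it lay above every vehicle liver, with the log2 fold change at 0.85 (SE 0.30, limma adjusted p = 0.253). Cyp2c50 had 29.0, 67.4 and 106 FPKM in treated livers, against 30.9, 34.5 and 47.1 FPKM in vehicle livers. The same count, 4 of 6, lay above, with the log2 fold change at 0.74 (SE 0.26, limma adjusted p = 0.243). Treated livers 4_5 and 5_5 were the ones within the vehicle range in Cyp2c37, and 5_3 was the highest in all 3 genes.

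These 3 genes are close copies, so reads can be shared between them. Of all windows of 50 bases in their transcripts, 30.1% of those of Cyp2c37, 30.7% of Cyp2c50 and 25.7% of Cyp2c54 also occur in a transcript of another gene, against 1.13% of Cyp2c55. Summed over the 3, the level was 105 ± 51.6 FPKM in treated and 53.5 ± 8.59 FPKM in vehicle livers (SD, n = 6 each). The sum reached 190.9 FPKM in treated 5_3 and was lowest at 47.7 FPKM in treated 5_5, against 42.2 to 63.6 FPKM in vehicle livers.

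Among the other Cyp2c genes, Cyp2c70 makes the muricholic acids of mouse bile. It averaged 183 ± 83.5 FPKM in treated and 116 ± 40.2 FPKM in vehicle livers (SD, n = 6 each), with a log2 fold change of 0.60 (limma adjusted p = 0.396). Cyp2c29, an epoxygenase induced by phenobarbital, averaged 127 ± 58.4 FPKM in treated and 104 ± 15.9 FPKM in vehicle livers, and the treated range of 54.1 to 180.0 FPKM enclosed the vehicle range of 79.8 to 124 FPKM. Cyp2c39 averaged 3.36 ± 0.96 FPKM in treated and 4.53 ± 0.97 FPKM in vehicle livers (log2 fold change -0.35, limma adjusted p = 0.344). Cyp2c38, Cyp2c67, Cyp2c68 and Cyp2c23 had log2 fold changes of -0.42, -0.24, 0.04 and 0.03, with limma adjusted p of 0.381 or more. The measured Cyp2c genes thus split into 4 lower and 7 higher. Together the 15 Cyp2c members, measured or not, gave 435 to 969.6 FPKM in treated and 438 to 614.5 FPKM in vehicle livers.

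**Figure D3:**
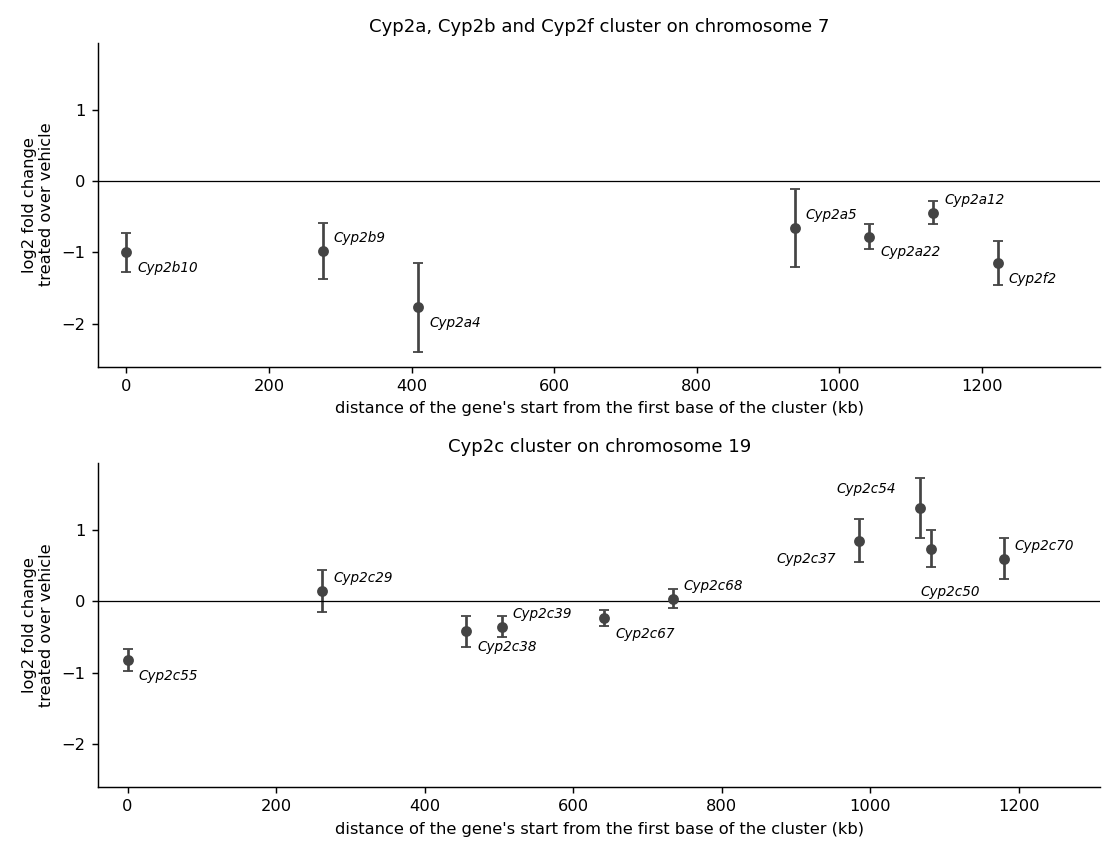
Log2 fold change of FPKM + 1 in liver at 40 d, treated over vehicle, against the distance in kb of each gene's start from the first base of its cluster, for the Cyp2a, Cyp2b and Cyp2f genes of chromosome 7 (top) and the Cyp2c genes of chromosome 19 (bottom). Points are estimates with 6 treated and 6 vehicle livers and bars are SE. All 7 genes of the upper panel lie under 0, and the lower panel runs from -0.83 at Cyp2c55 to 1.31 at Cyp2c54.

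The Cyp2a, Cyp2b and Cyp2f2 genes lie together on chromosome 7 over 1236 kb (chr7:25897620-27133660), and all 7 measured members there were lower in treated livers. Of the 7, 6 had an unadjusted limma p under 0.05, against 5 of 10 in the Cyp2c cluster and 13.2% of all genes. Cyp2b10, among the 6, reached 1 FPKM in 5 vehicle livers and 1 treated liver, so it entered the fit mainly through the vehicle group. At a filter of 5 FPKM, which leaves it out, 5 of 6 had an unadjusted limma p under 0.05, against 15.4% of all genes. None of the 7 passed the adjusted threshold, and their median log2 fold change was -0.99, with a range of -1.77 to -0.44. All 7 stayed lower with any 1 liver left out, though Cyp2a5 then ranged from -0.92 to -0.11. The cluster as a group was picked with its values known, and the 4 clusters of the Cyp2d, Cyp3a, Cyp4a with Cyp4b1, and Cyp4f genes had no member at an unadjusted limma p under 0.05. Promoters of 2 of its measured genes that lie head to head, Cyp2a22 (chr7:26939387-26939636, - strand) and Cyp2a12 (chr7:27028840-27029089, + strand), were 82.5% identical over the alignment, and capitals mark TATAAA in both.
Cyp2a22: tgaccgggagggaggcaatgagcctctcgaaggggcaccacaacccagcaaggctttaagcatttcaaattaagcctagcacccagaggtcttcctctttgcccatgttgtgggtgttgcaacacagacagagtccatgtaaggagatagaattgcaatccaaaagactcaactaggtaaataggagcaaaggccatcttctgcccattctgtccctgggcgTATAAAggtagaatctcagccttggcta
Cyp2a12: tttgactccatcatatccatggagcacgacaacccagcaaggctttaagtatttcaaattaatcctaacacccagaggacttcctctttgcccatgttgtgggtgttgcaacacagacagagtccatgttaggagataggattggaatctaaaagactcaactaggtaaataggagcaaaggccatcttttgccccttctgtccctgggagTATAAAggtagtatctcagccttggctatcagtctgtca

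Cyp2a22 had 4.74, 8.75 and 11.6 FPKM as lowest, median and highest in treated livers, against 12.8, 14.6 and 15.6 FPKM in vehicle livers. The groups did not overlap, and the vehicle livers were close to each other. Its log2 fold change was -0.78 (SE 0.18, limma adjusted p = 0.116), and the adjusted p was 0.051 to 0.265 over the 10 other settings tried. Cyp2a12, a steroid hydroxylase at a higher level, had 71.8, 123 and 144 FPKM in treated livers, against 130.3, 152.5 and 182 FPKM in vehicle livers. In 4 of 6 treated livers it was below every vehicle liver, with the log2 fold change at -0.44 (SE 0.16, limma adjusted p = 0.254). Windows of 50 bases shared with Cyp2a12 made up 25.7% of the Cyp2a22 transcript. Those shared with Cyp2a22 made up 27.5% of the Cyp2a12 transcript. Reads can thus be shared between them, and the part of such reads in the Cyp2a22 values was not tested.

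Cyp2f2, the enzyme that activates naphthalene in the mouse and a gene of periportal hepatocytes, had 26.9, 73.9 and 91.8 FPKM as lowest, median and highest in treated livers. Vehicle livers had 103, 131 and 264 FPKM, so the groups did not overlap. The log2 fold change was -1.15 (SE 0.31, limma adjusted p = 0.146), and it was -0.97 without vehicle 2_3, which held the highest value. Gm15883 lies on the other strand over 13.5% of its exonic bases, and reads from the 2 genes cannot be told apart, since no source used here says whether counting used strand. Of 15 other genes of periportal hepatocytes, 11 were lower and 4 higher in treated livers, with a median log2 fold change of -0.11 and none past the threshold. Of 13 tested genes of pericentral hepatocytes, 10 were higher and 3 lower, with a median of 0.13 and none past the threshold.

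Cyp2a4 and Cyp2a5, a steroid hydroxylase and the coumarin hydroxylase, are near copies. Cyp2a4 had 2.92, 24.9 and 95.9 FPKM in treated livers, against 49.2, 96.2 and 169 FPKM in vehicle livers. The groups overlapped in 2 treated livers, 5_2 and 5_4, and treated 5_5 was far below the rest, with the log2 fold change at -1.77 (SE 0.62, limma adjusted p = 0.246). Cyp2a5 had 36.9, 298.5 and 631 FPKM in treated livers, against 307, 420 and 489 FPKM in vehicle livers. Treated livers lay on both sides of the vehicle range, with 3 below it and 2 above it (log2 fold change -0.66, SE 0.54, limma adjusted p = 0.626). Without treated 5_5 the log2 fold change of Cyp2a5 was -0.11 (limma adjusted p = 0.917) and that of Cyp2a4 -1.22 (limma adjusted p = 0.322). Windows of 50 bases shared with other genes made up 38.8% of the Cyp2a4 transcript and 40.8% of the Cyp2a5 transcript. The sum of both was 384.5 ± 263 FPKM in treated and 505 ± 116 FPKM in vehicle livers (SD, n = 6 each), and the lowest and highest sums, 39.8 and 694 FPKM, were both in treated livers, 5_5 and 5_4.

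Cyp2b10, the standard mouse target of CAR, had 0.0506, 0.414 and 1.03 FPKM as lowest, median and highest in treated livers, against 0.52, 1.74 and 5.19 FPKM in vehicle livers. In 4 of 6 treated livers it was below every vehicle liver, and the reads behind a value were 2 to 39 in treated and 21 to 203 in vehicle livers. It reached 1 FPKM in 1 treated and 5 vehicle livers, so it entered the fit mainly through the vehicle group, and its log2 fold change of -1.002 (limma adjusted p = 0.165) understates a change at so low a level. Cyp2b9, a female-biased gene of mouse liver that was expressed in these males, had 10.97, 38.4 and 88.1 FPKM in treated livers, against 52.2, 69.2 and 92.1 FPKM in vehicle livers. Its log2 fold change was -0.99 (SE 0.39, limma adjusted p = 0.309). Cyp2b13 stayed just under the level for the fit, at 0.228 to 2.53 FPKM in treated and 0.508 to 1.27 FPKM in vehicle livers.

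**Figure D4:**
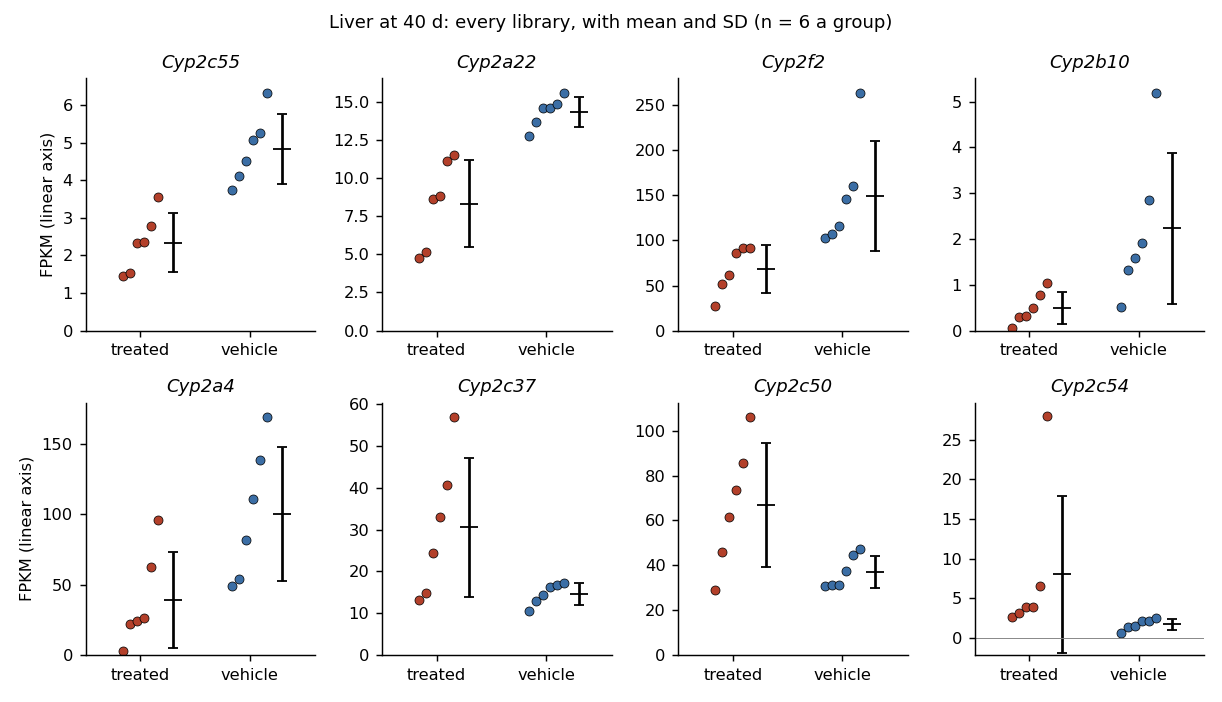
FPKM of 8 members in each liver at 40 d, on linear axes, with the 6 treated livers left of the 6 vehicle livers and points sorted by value. Bars are mean and SD, and for Cyp2c54 the SD reaches below 0. Treated and vehicle points do not overlap in Cyp2c55, Cyp2a22, Cyp2f2 and Cyp2c54.

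Family 1 showed no difference past the threshold. Cyp1a2, the constitutive liver enzyme that oxidises caffeine, averaged 73.1 ± 20.5 FPKM in treated and 69.0 ± 15.7 FPKM in vehicle livers (SD, n = 6 each), with the log2 fold change at 0.07 (SE 0.19, limma adjusted p = 0.904). Cyp1a1, the most inducible target of Ahr, stayed low, at 0.444 to 1.38 FPKM in treated and 0.413 to 1.49 FPKM in vehicle livers. Cyp1b1, mainly an enzyme of other tissues, averaged 0.99 ± 0.47 FPKM in treated and 0.88 ± 0.38 FPKM in vehicle livers. Like Cyp2b10 it met the level for the fit in exactly 6 livers, while Cyp2c40 and Cyp4a12b missed it with 5.

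Cyp2e1, which oxidises ethanol, acetone and paracetamol, had the highest level of the members. It had 1351, 1972 and 2970 FPKM as lowest, median and highest in treated livers, against 1353, 1937 and 2049 FPKM in vehicle livers. The medians were close and the treated livers spread wider, with the log2 fold change at 0.07 (SE 0.19, limma adjusted p = 0.9115). Cyp2d26 averaged 453 ± 115 FPKM in treated and 432 ± 75.7 FPKM in vehicle livers, and Cyp2d10 258 ± 50.9 FPKM in treated and 268 ± 28.3 FPKM in vehicle livers. Cyp2d9, a male-biased testosterone hydroxylase, averaged 95.6 ± 37.3 FPKM in treated and 72.7 ± 23.9 FPKM in vehicle livers (limma adjusted p = 0.540). Cyp2d40 exceeded the whole vehicle range in 5 of 6 treated livers, while treated 4_5 lay below all of it, and the log2 fold change was 0.33 (limma adjusted p = 0.446). Cyp2d22 had a log2 fold change of -0.18 (limma adjusted p = 0.527).

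Cyp2j5, an epoxygenase, averaged 156.5 ± 27.1 FPKM in treated and 155 ± 11.7 FPKM in vehicle livers, with the log2 fold change at -0.00 (SE 0.12). Cyp2j6 had 17.5, 19.05 and 23.9 FPKM as lowest, median and highest in treated livers, against 22.8, 23.45 and 31.8 FPKM in vehicle livers. In 4 of 6 treated livers it was below every vehicle liver, with the log2 fold change at -0.30 (SE 0.10, limma adjusted p = 0.2375). Cyp2r1, a hydroxylase that activates vitamin D, averaged 7.05 ± 1.03 FPKM in treated and 7.29 ± 1.13 FPKM in vehicle livers.

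Cyp3a11, the main Cyp3a enzyme of mouse liver and a PXR target, had 220.5, 550.0 and 623 FPKM as lowest, median and highest in treated livers. Vehicle livers had 562, 654.5 and 746 FPKM. All 6 treated livers lay under the vehicle mean, 3 lay under every vehicle liver, and treated 5_5 was the lowest by far. The log2 fold change was -0.42 (SE 0.22, limma adjusted p = 0.437), and -0.20 without treated 5_5 (limma adjusted p = 0.533). Cyp3a25 averaged 186 ± 47.6 FPKM in treated and 216 ± 20.5 FPKM in vehicle livers, and its near copy Cyp3a59 22.0 ± 6.09 FPKM in treated and 22.1 ± 3.497 FPKM in vehicle livers. Cyp3a13, which lies apart from the other Cyp3a genes on chromosome 5, had the opposite sign and averaged 84.2 ± 35.2 FPKM in treated and 54.4 ± 13.7 FPKM in vehicle livers (log2 fold change 0.55, SE 0.26, limma adjusted p = 0.396). Without treated livers 4_5 and 5_2, Cyp3a13 passed the threshold with a log2 fold change of 0.92 (limma adjusted p = 0.0472). Those livers held its lowest treated values, 40.8 and 52.4 FPKM, so leaving them out had to raise the fold change. The other treated livers had 86.8 to 139.6 FPKM. With any 1 liver left out Cyp3a13 was not called (limma adjusted p of 0.1965 to 0.615).

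The fatty acid hydroxylases of family 4 showed no call. Cyp4a14, a target of PPAR-alpha, averaged 296.5 ± 120.4 FPKM in treated and 320 ± 65.0 FPKM in vehicle livers (SD, n = 6 each), with the log2 fold change at -0.20 (SE 0.28, limma adjusted p = 0.789). Cyp4a10, also a target, averaged 110.3 ± 46.4 FPKM in treated and 137 ± 34.0 FPKM in vehicle livers (log2 fold change -0.40, limma adjusted p = 0.560). Treated 5_5 was the lowest of all livers in both. Cyp4a12a, the male-biased enzyme that hydroxylates arachidonic acid at its tail end, ranged over 3.58 to 19.5 FPKM in treated livers and over 3.73 to 40.6 FPKM in vehicle livers. Vehicle 2_3 alone held the top value, and the other vehicle livers stayed at or under 7.34 FPKM. Its copy Cyp4a12b, which shares 35.8% of the 100-base windows of the Cyp4a12a transcript, was also highest there, at 4.15 FPKM, against 0.289 to 2.04 FPKM in treated and 0.306 to 1.41 FPKM in the other vehicle livers. Cyp4a31 and Cyp4a32 had log2 fold changes of -0.36 and 0.06, with limma adjusted p of 0.515 and 0.927.

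Cyp4f14, which inactivates leukotriene B4, averaged 23.0 ± 7.83 FPKM in treated and 16.7 ± 4.62 FPKM in vehicle livers (log2 fold change 0.42, limma adjusted p = 0.404). Cyp4f15 averaged 39.97 ± 6.396 FPKM in treated and 39.7 ± 3.80 FPKM in vehicle livers. Cyp4f13, Cyp4f16 and Cyp4f17 had log2 fold changes of -0.03, 0.14 and -0.23, with limma adjusted p of 0.488 or more. Cyp4f18, the leukotriene B4 hydroxylase of mouse neutrophils, ranged over 1.21 to 3.51 FPKM in treated and 1.63 to 2.82 FPKM in vehicle livers (log2 fold change 0.11, limma adjusted p = 0.821). All 6 tested neutrophil markers were higher in treated livers, with a median log2 fold change of 2.09 and S100a9 past the threshold (limma adjusted p = 0.0449), and their part in the Cyp4f18 value was not tested. Cyp4v3, whose human counterpart CYP4V2 is mutated in a retinal dystrophy, averaged 45.5 ± 6.52 FPKM in treated and 54.96 ± 5.503 FPKM in vehicle livers. In 4 of 6 treated livers it was below every vehicle liver (log2 fold change -0.27, SE 0.10, limma adjusted p = 0.264). Cyp4b1 averaged 6.45 ± 1.11 FPKM in treated and 6.66 ± 2.29 FPKM in vehicle livers, with the log2 fold change at 0.00 (SE 0.18).

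Of the 35 members under the level for the fit, a few stood out in a single liver. Cyp2s1, an enzyme of epithelia, had 10.2 FPKM in treated 5_2, against 0.329 to 1.21 FPKM in the other treated livers and 0.382 to 0.847 FPKM in vehicle livers. Cyp2c65, known from the gut, had 5.41 FPKM in treated 5_2, while the other treated livers had at most 0.101 FPKM and the vehicle livers at most 0.136 FPKM. Cyp2b13 was highest there too, at 2.53 FPKM. In the same liver Krt19 stood at 71.9 FPKM and the epithelial galectin Lgals4 at 27.6 FPKM, against 2.38 to 2.89 FPKM of Lgals4 in the other treated livers and 1.80 to 4.63 FPKM in vehicle livers. The summed cholangiocyte markers ranged over 69.8 to 754 FPKM in treated and 127 to 308 FPKM in vehicle livers, and their part in these values was not tested. The 6 members at 0 in every liver of 40 d were Cyp2b19, Cyp2b23, Cyp2c66, Cyp2j12, Cyp2j7 and Cyp4a30b.

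The regulators of the families showed no call at 40 d. Of 18, 10 were higher and 8 lower in treated livers, with a median log2 fold change of 0.02. CAR itself, Nr1i3, averaged 5.15 ± 1.49 FPKM in treated and 3.84 ± 0.75 FPKM in vehicle livers (limma adjusted p = 0.439). PXR, Nr1i2, averaged 33.6 ± 5.94 FPKM in treated and 38.9 ± 5.17 FPKM in vehicle livers, and Ppara 23.9 ± 7.57 FPKM in treated and 27.2 ± 2.57 FPKM in vehicle livers. Ahr averaged 8.51 ± 0.97 FPKM in treated and 7.69 ± 1.51 FPKM in vehicle livers. The redox regulator Nfe2l2 had the smallest p of the list, with a log2 fold change of -0.25 (limma adjusted p = 0.296).

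Genes that serve the enzymes or share their regulators were described by count. Of 7 electron donors, 6 were lower in treated livers, with a median log2 fold change of -0.06, and Cyb5r3, the cytochrome b5 reductase, averaged 126 ± 27.8 FPKM in treated and 178 ± 20.8 FPKM in vehicle livers (log2 fold change -0.52, limma adjusted p = 0.159). Por, the reductase of all the members, averaged 146 ± 39.1 FPKM in treated and 132 ± 28.6 FPKM in vehicle livers (limma adjusted p = 0.787). Of 12 genes of heme supply and breakdown, 7 were higher, with a median of 0.03, and Alas1, the rate-limiting step of heme synthesis, averaged 117 ± 51.8 FPKM in treated and 137 ± 59.1 FPKM in vehicle livers. Of 10 tested CAR and PXR targets outside the families, 9 were lower, with a median of -0.30 and none called. The transporters Abcb1a, Abcc2 and Abcc3 among them had log2 fold changes of -0.40, -0.38 and -0.32, with limma adjusted p of 0.210 to 0.219. Of 12 tested PPAR-alpha targets outside the families, 11 were lower, with a median of -0.27, and the lipid droplet protein Cidea fell past the threshold (log2 fold change -1.31, limma adjusted p = 0.0419). Of 2 tested AHR targets, Nqo1 was lower and Tiparp higher in value, and of 4 tested flavin monooxygenases 3 were lower.

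Other features of the livers moved beside these values. All 11 positive acute-phase genes were higher in treated livers, with a median log2 fold change of 1.48 and none called, and their sum ranged over 9416 to 46390 FPKM in treated and 10060 to 11770 FPKM in vehicle livers. All 11 Kupffer cell and macrophage genes were higher, with a median of 0.41 and none called. Their sum ranged over 650.3 to 2146 FPKM in treated and 660.1 to 728 FPKM in vehicle livers. Higher in treated livers were also 6 of 6 tested red cell genes, with a median of 0.65, and 6 of 10 stellate cell and fibroblast genes, with a median of 0.17, while 8 of 10 endothelial genes were lower, with a median of -0.06, and none of these was called. Of 13 hepatocyte markers 6 were higher, with a median of -0.01. Of 9 tested P450 genes outside the families 5 were higher, with a median of 0.02. Of the sex-biased genes outside the families, 3 of 5 tested male-biased and 2 of 2 tested female-biased genes were lower, with medians of -0.20 and -0.14. The part of these features in the values of the members was not tested.

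At 24 h, with 1 treated and 1 vehicle liver, no test was possible and the ratios have no replicate check. Of the 46 members, Cyp2c54 passed a 2-fold difference, against 1.16% of all genes tested at 40 d. It had 3.97 FPKM in the treated and 10.7 FPKM in the vehicle liver (log2 ratio -1.23), and its copies Cyp2c37 and Cyp2c50 were also lower, with 19.5 FPKM in the treated and 33.5 FPKM in the vehicle liver, and 41.55 FPKM in the treated and 68.5 FPKM in the vehicle liver. This is the opposite side from 40 d, when all 3 were higher in treated livers. Cyp2f2 came next, with 37.0 FPKM in the treated and 18.4 FPKM in the vehicle liver (log2 ratio 0.97), again opposite to 40 d. Cyp4a12a had 14.8 FPKM in the treated and 29.5 FPKM in the vehicle liver. Cyp2c55 had 2.53 FPKM in the treated and 3.49 FPKM in the vehicle liver, and Cyp2a22 6.86 FPKM in the treated and 11.2 FPKM in the vehicle liver, both on the same side as at 40 d. Cyp3a13 had 85.9 FPKM in the treated and 51.4 FPKM in the vehicle liver, also the same side.

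In the whole set 24 members were higher and 22 lower at 24 h, with a median log2 ratio of 0.02, against 0.06 over all genes. By subfamily, all 5 measured Cyp2d genes were higher and 9 of 11 Cyp2c genes lower in FPKM in the treated liver. The treated liver had a scaling factor of 14.1 M and 16.96 M reads on genes, and the vehicle liver 16.2 M and 17.34 M. Cyp2d10 had 6771 reads in the treated and 7121 in the vehicle liver, Cyp2d26 10317 and 10504, and Cyp2d22 3070 and 3173. The direction of these genes therefore depends on the scaling. Cyp2d9, with 5299 and 4533 reads, and Cyp2d40, with 564 and 486, were higher in the treated liver in reads too. Cyp2e1 had 3145 FPKM in the treated and 3622 FPKM in the vehicle liver. Cyp2a4 and Cyp2b9, lower in mean at 40 d, were nearly level at 24 h, with 22.2 FPKM in the treated and 21.7 FPKM in the vehicle liver, and 15.4 FPKM in the treated and 15.7 FPKM in the vehicle liver. Cyp2b10 had 0.571 FPKM in the treated and 0.292 FPKM in the vehicle liver, from 17 and 10 reads. The 24 h table was normalized apart from the 40 d table, so levels are not compared between the times.

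**Figure D5:**
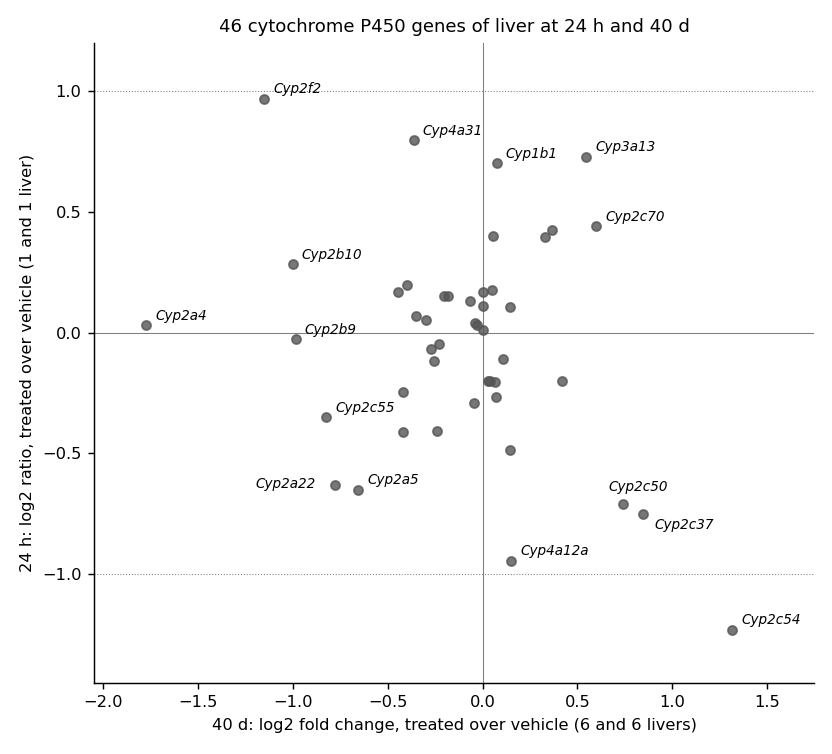
Each point is a measured member, with the log2 fold change at 40 d (6 treated and 6 vehicle livers) on the horizontal axis and the log2 ratio at 24 h (1 treated and 1 vehicle liver) on the vertical axis, both treated over vehicle on FPKM + 1. Dotted lines mark 2-fold at 24 h. Cyp2c54 lies past the lower line at the far right, Cyp2f2 high on the left, and Cyp2a4 near 0 at 24 h.

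Muscle held few of these enzymes, and none of the 12 measured members differed past the threshold, against 0.0% of all genes (451 genes, or 3.85%, had an unadjusted limma p under 0.05, and no member did, and voom on recovered reads called 0 genes). The smallest adjusted p of a member was 0.999. Cyp2e1 was the most abundant. It had 3.08, 13.35 and 18.4 FPKM as lowest, median and highest in treated muscles, against 6.87, 16.1 and 32.3 FPKM in vehicle muscles, with the log2 fold change at -0.43 (SE 0.41). Cyp4b1 averaged 11.75 ± 2.70 FPKM in treated and 10.75 ± 2.15 FPKM in vehicle muscles, and Cyp2d22 8.92 ± 0.54 FPKM in treated and 9.17 ± 1.16 FPKM in vehicle muscles. Cyp2j6 averaged 2.67 ± 0.35 FPKM in treated and 2.89 ± 0.36 FPKM in vehicle muscles, Cyp4f13 2.64 ± 0.46 FPKM in treated and 2.38 ± 0.31 FPKM in vehicle muscles, and Cyp4v3 2.56 ± 0.81 FPKM in treated and 2.49 ± 0.64 FPKM in vehicle muscles. Cyp2u1, a fatty acid hydroxylase, had the smallest p, with 1.35 ± 0.40 FPKM in treated and 1.12 ± 0.08 FPKM in vehicle muscles (limma adjusted p = 0.999). The other 5 had log2 fold changes of -0.03 to 0.13.

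Liver-type members appeared at low levels in some 40 d muscles, most in vehicle 3_2. That library had 6.93 FPKM of Cyp4a14, 4.38 of Cyp4a10 and 2.37 of Cyp3a11, while treated muscles had at most 0.976, 1.04 and 0.188 FPKM of these genes and the other vehicle muscles at most 0.716, 0.697 and 0.183 FPKM. The same library had 98.0 FPKM of Alb, against 1.58 to 14.2 FPKM in treated muscles and 1.94 to 11.6 FPKM in the other vehicle muscles. Below it came treated 4_5, which held those highest treated values with 14.2 FPKM of Alb, and vehicle 2_4, which held the next vehicle values with 11.6 FPKM of Alb. None of the 3 genes entered the fit. At 24 h the vehicle muscle had 66.7 FPKM of Alb and 1.77 FPKM of Cyp3a11, and the treated muscle 5.32 FPKM of Alb and 0 reads of Cyp3a11. No measured member passed 2-fold between the 24 h muscles, against 2.41% of all genes.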

How the data were processed

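Liver and muscle RNA of 28 mouse libraries was extracted with Trizol, and libraries were made with a NEBNext Ultra kit, as the labels' protocols state. The authors deposited FPKM per gene, in 3 tables for liver at 40 d, muscle at 40 d and both tissues at 24 h, and the submitters' processing notes name the builds GRCm38 and mm10. No source used here names the aligner or the counter, or says whether reads were counted by strand. Every FPKM value was a whole multiple of what 1 read is worth, within 0.01, so read numbers were recovered. The tables were normalized apart and were tested apart.

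Genes that reached 1 FPKM in 6 or more of a tissue's 12 libraries were compared on log2(FPKM + 1), 6 treated against 6 vehicle libraries, with limma 3.58.1 in R 4.3.3 (trend on, two-sided, Benjamini-Hochberg over all genes tested, threshold 0.05). The test recovered most of the largest changes put into simulated data. Its recovery of the smaller changes put in is not reported here. Each simulated gene varied independently, so the simulation does not cover differences that many genes of a library share. Labels do not say more of the mice than a number, so p-values measure the spread between these animals. With 1 library per group, 24 h values have no test. The 28 sample columns were all used. The members and the gene lists were chosen with earlier results of these data known. Every measured member is named in liver. Values of every library or their range are given for members past the threshold, the 12 with the smallest p, and well-known or highly expressed ones, and genes of the lists are named where past the threshold, among the 3 of a list with the smallest p, or key regulators. Alternatives were other pseudocounts, filters, centring, no trend, library weights, voom on recovered reads and libraries left out. Promoters are RefSeq's on GRCm38.p6, and transcript windows and exon overlaps come from GENCODE release 21 for mouse. Motif and sequence work used Biopython 1.88, and tables and figures pandas 2.3.3 and matplotlib 3.10.9.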

Additional observations from a re-analysis of the deposited data

Results flagged for a closer look

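In 12 of 116 groups of 6 libraries 1 value lay far from the others, by Dixon's criterion at the 95% level, which chance meets in about 1 in 20 groups. Of the 12, 8 were vehicle values, and vehicle 2_3 held 3 of them.

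In treated livers, Cyp2c54 in 5_3 stood at 27.95 FPKM, with the other treated livers at 2.62 to 6.58 FPKM, and Cyp3a11 in 5_5 stood at 220.5 FPKM, with the others at 494 to 623 FPKM. In treated muscles, Cyp1b1 in 4_5 stood at 3.477 FPKM, with the others at 0.578 to 1.66 FPKM, and Cyp4v3 in 5_2 at 0.9513 FPKM, with the others at 2.60 to 3.15 FPKM.

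In vehicle livers, 2_3 was high in Cyp4a12a (40.57 FPKM, the others 3.73 to 7.34 FPKM), Cyp2f2 (264.1 FPKM, the others 102.9 to 160.0 FPKM) and Cyp2c23 (26.89 FPKM, the others 19.6 to 21.8 FPKM). Vehicle 2_1 was high in Cyp2c38 (64.09 FPKM, the others 38.97 to 46.6 FPKM) and Cyp2j6 (31.78 FPKM, the others 22.8 to 25.5 FPKM). Vehicle 3_2 was low in Cyp2e1 (1353 FPKM, the others 1848 to 2049 FPKM) and high in Cyp2r1 (9.502 FPKM, the others 6.26 to 7.17 FPKM). Vehicle 6_1 was high in Cyp4f18 (2.821 FPKM, the others 1.63 to 2.05 FPKM).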

How the results depend on the processing

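The count of called liver genes was 28, and it was 0 with no filter on low values, 0 to 83 with 1 library left out and 150 without treated mice 4_5 and 5_2 together. It was 83 without treated 5_2, 0 without treated 5_3 or vehicle 2_3, 1 without vehicle 3_2, 2 without vehicle 2_1, 7 without vehicle 2_5, 14 without treated 5_5 and 15 without vehicle 2_4 or 6_1. Of the members, 1 was called, and 0 were with a pseudocount of 0.1, no filter or a filter of at least 5 FPKM, which leaves Cyp2c55 out. The count was 0 to 1 with 1 library left out and 2 without treated 4_5 and 5_2 together, Cyp3a13 being the other. Cyp2c55 had an adjusted p of 0.057 with a pseudocount of 0.1 and 0.134 with no filter, and kept its direction in every setting run. Members with an unadjusted limma p under 0.05 numbered 9 to 17 over the settings, while the share of all genes ran from 8.65% to 17.2%. The 9 came with the filter of at least 5 FPKM, which kept 38 members. Members without overlap numbered 4 to 6, and the share of all genes ran from 1.16% to 4.71%. The 6 and the 4.71% both came without treated 4_5 and 5_2 together. The chromosome 7 genes were all lower in each setting. The cause of these changes was not tested. In muscle, 1 gene was called with a filter of at least 5 FPKM and 1 with library quality weights, and 0 to 1 with 1 library left out. At 24 h, 3 liver members passed 2-fold with a pseudocount of 0.1, and 10 passed 1.5-fold. In muscle, 1 member passed 2-fold with a pseudocount of 0.1, and 4 did when members needed 1 FPKM in either 24 h library. At 1.5-fold there were 3 muscle members. The share of all genes was not counted under these settings, so these 24 h counts cannot be read as a result about the members.

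Direction changed in members with small log2 fold changes. In liver these were -0.0088 (Cyp4b1) and -0.0066 (Cyp4f15) with libraries centred on the median, -0.0057 (Cyp2c68), 0.011 (Cyp2j5), 0.035 (Cyp3a59) and 0.0049 (Cyp4f13) with library weights, 0.0091 (Cyp2j5) with voom, and 0.093 (Cyp2j5), -0.12 (Cyp4b1) and 0.087 (Cyp4f13) without treated 4_5 and 5_2 together. In muscle they were -0.015 and -0.00094 (Cyp4v3) with pseudocounts of 0.1 and 0.5, and -0.077 (Cyp4f16) and -0.00019 (Cyp4f17) with library weights. With 1 library left out, 15 liver members took either sign: Cyp1a2 (-0.051 to 0.16), Cyp1b1 (-0.016 to 0.17), Cyp2c23 (-0.031 to 0.092), Cyp2c68 (-0.055 to 0.093), Cyp2d26 (-0.058 to 0.14), Cyp2e1 (-0.057 to 0.17), Cyp2j5 (-0.061 to 0.081), Cyp2r1 (-0.10 to 0.028), Cyp3a59 (-0.12 to 0.11), Cyp4a12a (-0.081 to 0.61), Cyp4a14 (-0.35 to 0.032), Cyp4a32 (-0.060 to 0.13), Cyp4b1 (-0.11 to 0.11), Cyp4f13 (-0.097 to 0.020) and Cyp4f15 (-0.068 to 0.040). The 6 muscle members that did were Cyp1b1 (-0.22 to 0.083), Cyp2c23 (-0.012 to 0.070), Cyp2d22 (-0.064 to 0.020), Cyp4f16 (-0.10 to 0.12), Cyp4f17 (-0.070 to 0.12) and Cyp4v3 (-0.046 to 0.17). No paired analysis was possible because treated and vehicle mice share no mouse number. Few reads limit Cyp2b10, with 2 to 39 in a treated liver.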
